A study of Mus musculus with 9 samples.

Results

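Liver remnants of mice given the SHP2 inhibitor NSC87877 (NSC), collected 40 h after partial hepatectomy, were compared with the resected liver of vehicle-treated mice, described across all genes. The 2 groups were the NSC 40 h libraries and the vehicle 0 h libraries as the sample titles and table columns name them, and they made up 6 of the 9 RNA-Seq libraries of the series (3 and 3). All animals were mice of 12 weeks, C57/BL6 by the sample records, and male C57BL/6J by the study's methods. NSC was given at 7.5 mg/kg per dose, or 15 mg/kg per day in 2 i.p. doses, and treatment ran through to the 40 h time point. The sample records place the first dose 12 h ahead of a 70% resection, and the methods place it on the preceding day. The resected lobes of vehicle-treated mice, taken at surgery, are called baseline below. Baseline mice had received the saline vehicle before surgery, and every 40 h mouse had in addition been through the operation, so a change from baseline holds hepatectomy, 40 h of regrowth and the inhibitor together. The other 3 libraries, remnants of vehicle-treated mice at 40 h, serve as the only arm that separates the drug from the operation. Liver resected from the NSC-treated animals is not part of this comparison, and remnant and baseline came from different mice.

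Hepatocytes of the adult liver are mostly quiescent. After loss of tissue they re-enter the cell cycle, copy their DNA and divide while the remnant continues to make plasma proteins, bile acids, glucose and urea for the whole body. SHP2, the tyrosine phosphatase encoded by *Ptpn11*, relays growth factor signals to the RAS and ERK cascade, and NSC blocks its catalytic site and that of the related SHP1, encoded by *Ptpn6*.

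Between 31187349 and 33943842 reads were counted on genes in the baseline libraries and between 23997363 and 30201051 in the NSC libraries. Levels are library-size-scaled counts (CPM) adjusted by edgeR's TMM factors, listed in the order of replicates 1 to 3. A change is a log2 fold change, NSC minus baseline, with its standard error (SE) after the ± sign. A gene rose or fell when the adjusted p of edgeR's quasi-likelihood test over 15024 genes was under 0.05. The labels do not say that replicates are separate mice, and the p-values measure the spread between these samples. In whole liver, fewer cells of a type and less RNA per cell cannot be told apart.

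Each group held a library that stood apart. Baseline replicate 2 had 81.0 CPM of *Dbp*, a transcription factor of the circadian clock output, against 0.411 and 1.29 CPM in the other baseline livers, and NSC replicate 1 had 8.31 CPM of the mitotic cyclin *Ccnb1* against 115 and 108 CPM. Named values that rest on either are given with and without it. Where leaving out a single library, or both of these, moves the count of a list by more than 1.5 times and by at least 2 genes, the count without it follows. Of all genes tested, 2728 rose (18.2%) and 2479 fell (16.5%). A rise by more than 1.5 on the log2 scale was reached by 809 genes (5.38%) and a fall of that size by 413 genes (2.75%). With both libraries left out, 2548 rose and 2373 fell. The median change of all genes was 0.0129, and scaling by library size alone moved it to 0.15 and the share of rises among changed genes from 52.4% to 65.4%. Across genes the change had a Spearman correlation of -0.41 with the GC content of the transcript (n = 14900 genes, which share the 6 libraries). For the change of the vehicle remnants from the same baseline this correlation was -0.125. Where correction for GC content ends a call or moves a named change from baseline by more than 1.5 times, its value is given with the gene.

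**Figure D1:**
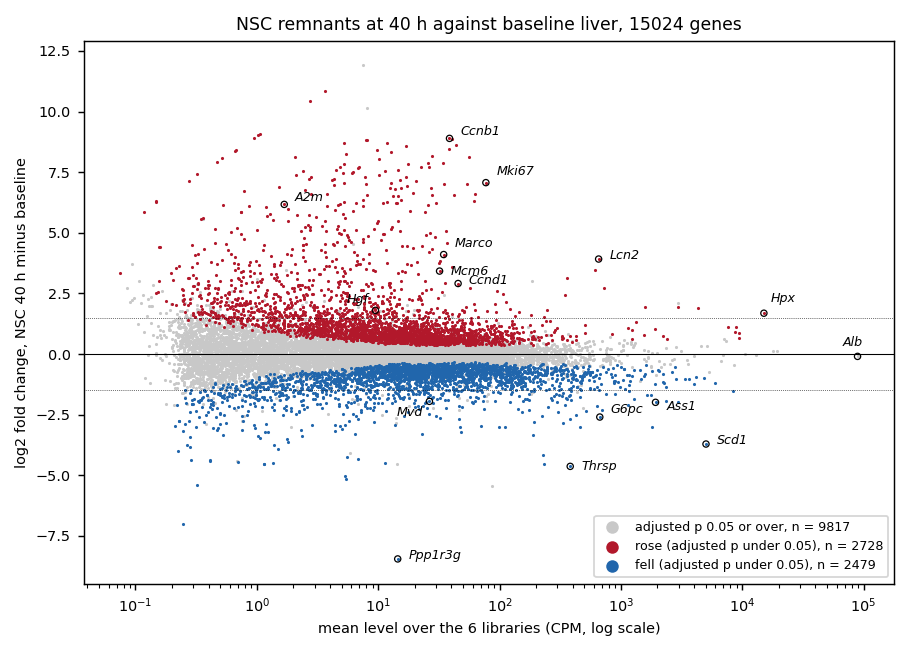
Log2 fold change of each of 15024 genes, NSC at 40 h minus baseline (vertical), against its mean CPM over the 6 libraries on a log scale (horizontal). Red points rose (2728) and blue points fell (2479) at an adjusted p under 0.05 (edgeR), dotted lines mark 1.5 in each direction, and circles mark the genes named on the plot.

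DNA replication genes rose almost throughout the list. Of 55 genes of origin licensing, replication forks and nucleotide supply, 48 rose and 2 fell, with a median change of 1.83. *Mcm6* (ENSMUSG00000026355, chromosome 1, 128331590 to 128359664), a subunit of the helicase that opens DNA at the fork, had 4.42, 5.92 and 6.07 CPM at baseline and 62.2, 65.8 and 48.1 CPM in the NSC remnants. The groups lay far apart and the spread within each was small, which gave a change of 3.42 ± 0.19 (adjusted p = 1.53e-06). The promoter of *Mcm6* is printed because it holds several matches to the E2F letters searched here. The 250 bases before its start (chr1:128359706-128359955, minus strand, GRCm38.p6, RefSeq) are given 5′ to 3′, with matches to E2F motifs, to the cell cycle homology region TTTGAA and to the CCAAT box, which reads ATTGG on the other strand, in capitals.
*Mcm6*: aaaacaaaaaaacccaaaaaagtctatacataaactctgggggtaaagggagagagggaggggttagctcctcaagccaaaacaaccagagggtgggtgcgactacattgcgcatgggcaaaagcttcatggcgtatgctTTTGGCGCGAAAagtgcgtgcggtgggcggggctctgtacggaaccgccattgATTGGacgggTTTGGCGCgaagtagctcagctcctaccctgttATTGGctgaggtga
One pair of E2F matches, at positions -110 and -106 from the start, overlaps, and a further match begins at -47. CCAAT boxes begin at -57 and -14, and TTTGAA is not in this window.

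The fork genes moved by different amounts. *Pcna*, the sliding clamp of DNA polymerase, was already at 19.4, 19.9 and 18.4 CPM in baseline liver and reached 56.0, 57.4 and 55.6 CPM, a change of 1.55 ± 0.13. *Lig1*, which joins Okazaki fragments, went from 3.35, 3.54 and 3.73 CPM to 16.9, 20.6 and 18.2 CPM (2.39 ± 0.18). In the subunits of ribonucleotide reductase, the enzyme that makes deoxynucleotides, the large subunit *Rrm1* changed by 2.55 ± 0.18 and the small subunit *Rrm2* by 3.75 ± 0.56. *Rrm2* was uneven at baseline, at 2.50, 8.49 and 2.11 CPM, and baseline replicate 2 was the high one. The NSC remnants, at 37.6, 75.3 and 64.6 CPM, were still above all 3. NSC replicate 1 was closer to the other remnants in this list than in mitosis genes: its score, the middle value over member genes of log2 CPM after subtracting each gene's mean across the 9 libraries, was 0.37 against 0.80 and 0.69 in the other NSC remnants and -1.05 to -0.94 at baseline.

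Mitosis genes rose more steeply and far less evenly. Of 53 such genes 51 rose and none fell, with a median of 6.31, the largest of the 38 lists followed here. *Ccnb1* (ENSMUSG00000041431, chromosome 13, 100778650 to 100786570), the cyclin that takes cells into mitosis, had 0.0948, 0.214 and 0.165 CPM at baseline, where no library held more than 7 reads, and 8.31, 115 and 108 CPM in the remnants. NSC replicate 1 lay more than 10 times below the other NSC remnants and still clearly above baseline, and the change was 8.90 ± 1.24 with all livers and 9.43 without that replicate. *Cdk1*, its kinase partner, chosen with its values known because its promoter is printed, had 1.42, 1.22 and 1.19 CPM at baseline and 23.8, 166 and 184 CPM with NSC (6.60 ± 0.82, adjusted p = 0.00107). The same replicate was lowest for the next 4 genes. *Hmmr*, a spindle protein, reached 16.9, 124 and 100.4 CPM, and *Ube2c*, the ubiquitin-conjugating enzyme that works with the anaphase-promoting complex, reached 7.44, 113 and 110.1 CPM, from at most 0.198 and 0.330 CPM at baseline. The chromatin-bound proliferation marker *Mki67* was at 61.2, 239 and 160.1 CPM from 1.14, 1.37 and 0.891 CPM, and *Foxm1*, a transcription factor of the G2 and M program, at 8.52, 45.1 and 39.0 CPM from 0.316, 0.0611 and 0.429 CPM. The mitosis score was 0.15 in NSC replicate 1 and 2.56 and 2.36 in replicates 2 and 3, -2.95 to -2.83 at baseline, and 0.96 to 1.34 in the vehicle remnants. The NSC remnants lay on both sides of the vehicle remnants for mitosis.

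The promoters of *Cdk1* and *Ccnb1* are shown as 2 members of the steepest list that carry different letters of the cell cycle type. Both lie on the minus strand (chr10:69352913-69353162 and chr13:100786487-100786736, GRCm38.p6, RefSeq). Capitals mark the same 3 motifs.
*Cdk1*: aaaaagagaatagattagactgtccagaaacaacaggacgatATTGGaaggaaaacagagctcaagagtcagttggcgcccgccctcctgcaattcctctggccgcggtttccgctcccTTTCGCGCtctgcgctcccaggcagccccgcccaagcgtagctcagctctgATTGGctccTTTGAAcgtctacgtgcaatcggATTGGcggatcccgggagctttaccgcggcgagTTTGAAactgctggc
*Ccnb1*: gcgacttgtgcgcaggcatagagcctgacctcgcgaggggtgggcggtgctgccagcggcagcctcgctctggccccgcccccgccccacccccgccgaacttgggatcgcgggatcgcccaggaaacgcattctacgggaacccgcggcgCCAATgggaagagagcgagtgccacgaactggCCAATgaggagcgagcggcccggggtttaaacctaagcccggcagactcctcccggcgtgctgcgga
*Cdk1* holds an E2F match at -131, TTTGAA at -71 and at -15, and 3 CCAAT boxes, at -208, -80 and -48. *Ccnb1* holds 2 CCAAT boxes, at -99 and -67, and neither E2F letters nor TTTGAA in this window.

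These letters were unevenly spread over the lists. An E2F match here is TTCCCGC or TTTCGCGC or TTTGGCGC on either strand, within a window from 250 bases before to 50 bases after the start. It was found in 48.1% of the 54 promoters of DNA replication genes and in 8.16% of the 49 of mitosis genes, against 5.33% of all 32851 promoters of the RefSeq table. TTTGAA was found in 67.3% of mitosis promoters and 14.8% of replication promoters (17.9% of all), and CCAAT in 81.6% and 51.9% (37.4% of all). Promoters were matched for 45 of 55 replication genes and 44 of 53 mitosis genes. Of the 672 promoters of genes that rose by more than 1.5, E2F letters were in 17.0% and TTTGAA in 23.7%, and of the 348 of genes that fell by more than 1.5, in 5.75% and 11.8%. A match describes letters and is not evidence of binding.

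**Figure D2:**
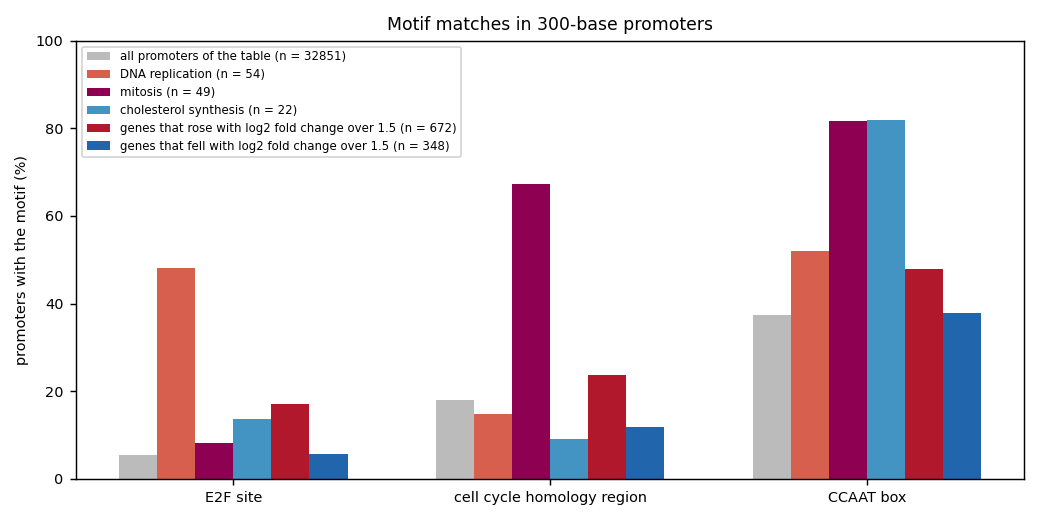
Share of promoters (%) that hold each motif on either strand, for all promoters of the table and for 5 sets of genes, with the number of promoters in brackets. E2F letters stand out in DNA replication genes (48.1%) and TTTGAA in mitosis genes (67.3%), and the CCAAT box is frequent in mitosis and cholesterol synthesis genes.

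Regulators of the G1 phase were followed as 28 genes, of which 14 rose and 3 fell (median 1.03). *Ccnd1*, the cyclin that growth factors induce, had 7.74, 15.3 and 9.11 CPM at baseline and 109, 75.1 and 57.0 CPM with NSC (2.91 ± 0.47, adjusted p = 0.00234). The cyclins that partner CDK2 rose further, *Ccne1* by 3.22 ± 0.49 and *Ccne2* by 3.99 ± 0.38. *Ccne2* was at 8.94, 6.25 and 5.95 CPM in the NSC remnants and 3.33, 2.49 and 4.28 CPM in the vehicle remnants. The NSC remnants were all higher, and the difference of 1.07 ± 0.32 had an adjusted p of 0.123. The pocket protein *Rbl1* and the repressive E2F genes *E2f7* and *E2f8* rose as well (3.74 ± 0.38, 3.13 ± 0.43 and 2.03 ± 0.25). The CDK inhibitor *Cdkn1a* (p21) had 60.2, 61.5 and 59.6 CPM with NSC against 35.7, 6.53 and 20.4 CPM at baseline and an adjusted p of 0.0540 (change 1.53 ± 0.52). Baseline replicate 2 was the low one, and without it the change was 1.10 with an adjusted p of 0.00999. *Myc*, named after its values were seen, fell from 16.5, 9.83 and 12.1 CPM to 6.30, 3.53 and 5.20 CPM (-1.35 ± 0.32).

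The 10 largest falls without overlap and with a mean of at least 5 CPM were *Ppp1r3g*, *Scd3*, *Slc13a2*, *Thrsp*, *Lpin1*, *Upp2* and *Scd1*, and 3 predicted genes or pseudogenes, *Gm4956*, *Gm13775* and *Mup-ps16*, the last from a family whose copies share reads. *Ppp1r3g* (ENSMUSG00000050423, chromosome 13, 35958839 to 35970388), which targets protein phosphatase 1 to glycogen, had 39.8, 23.8 and 23.1 CPM at baseline and 0.120, 0.102 and 0 CPM with NSC. The last of these stand for at most 4 reads in a library, so the fitted change of -8.45 ± 1.16 depends on the prior count. In the vehicle remnants it was at 0.425, 3.50 and 0.406 CPM, and the difference between the remnants (-4.16 ± 1.26, adjusted p = 0.152) did not pass the test. *Slc13a2*, a carrier of citrate and other dicarboxylates, went from 13.4, 3.45 and 13.9 CPM to 0.150, 0.204 and 0.626 CPM (-5.01 ± 0.72). *Upp2*, a uridine phosphorylase, was at 293, 805 and 199 CPM and then 22.7, 18.3 and 31.9 CPM. Its change was -4.15 ± 0.93 with an adjusted p of 0.0131, and without NSC replicate 1 the adjusted p was 0.0595. With baseline replicate 2, its highest library, left out too, the change was -3.29 (adjusted p = 0.109).

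Of 28 genes of fatty acid and triglyceride synthesis 16 fell, 12 of them by more than 1.5, the others did not pass and none rose, with a median of -1.60. *Scd1* (ENSMUSG00000037071, chromosome 19, 44394451 to 44407709), the desaturase that makes oleate from stearate, was among the most abundant transcripts of baseline liver at 7196, 13322 and 7538 CPM and was down to 477, 1078 and 585 CPM in the NSC remnants. No remnant came near a baseline liver, and the change was -3.71 ± 0.55 (adjusted p = 0.00113). *Fasn*, fatty acid synthase, had 337, 1298 and 535 CPM at baseline and 122, 145 and 116 CPM with NSC (-2.50 ± 0.54). Its baseline level varied more than its level in the remnants, and without baseline replicate 2 the change was -1.77. *Me1*, the malic enzyme that supplies NADPH, changed by -1.88 ± 0.23, *Dgat2*, which makes the last step of triglyceride synthesis, by -1.45 ± 0.20, and *Mlxipl*, the carbohydrate-responsive factor ChREBP, by -1.64 ± 0.24. For 2 members the size of the fall rested on baseline replicate 2. *Thrsp*, a lipogenic nuclear protein, was at 224, 1783 and 199 CPM in baseline livers and 18.0, 25.5 and 45.5 CPM with NSC, and its change of -4.63 ± 1.10 was -2.84 without that liver. *Lpin1*, a phosphatidate phosphatase, had 186, 1047 and 101 CPM at baseline and 32.2, 14.1 and 11.1 CPM with NSC, and changed by -4.54 ± 1.05 with and -2.91 without it. All NSC remnants were below all baseline livers for both. The call for *Thrsp* was lost without NSC replicate 1 (adjusted p = 0.0717) or NSC replicate 2 (adjusted p = 0.0603), and that for *Lpin1* without NSC replicate 2 (adjusted p = 0.0563). With both libraries that stand apart left out, the change of *Thrsp* was -2.58 (adjusted p = 0.0580). Without baseline replicate 2, 15 members still fell, with a median of -1.33.

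**Figure D3:**
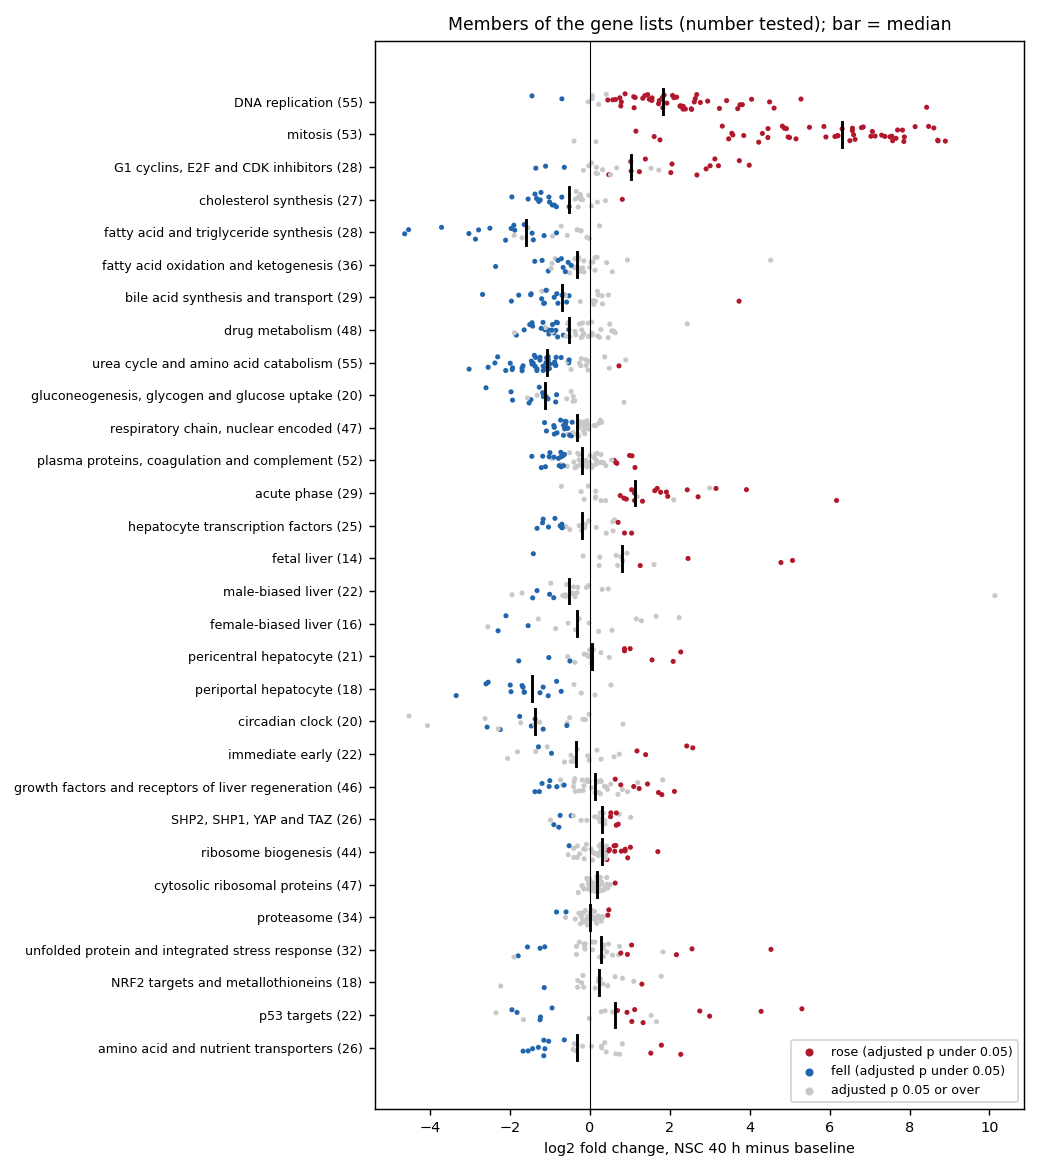
Log2 fold change, NSC at 40 h minus baseline (horizontal), of every tested member of 30 gene lists, with the number tested in brackets. Each point is a gene (red rose, blue fell, grey did not pass) and each bar is the median of the list. Mitosis genes lie farthest to the right (median 6.31), and fatty acid synthesis and periportal genes farthest to the left (medians -1.60 and -1.44).

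Cholesterol synthesis genes fell by smaller amounts: of 27 genes 14 fell and 1 rose, with a median of -0.52. The same list had a median of -0.08 in the vehicle remnants, whose change from the shared baseline is given side by side. Between the remnants 1 of the 27 genes, *Mvd*, passed the test. Vehicle medians of other lists were 1.54 for DNA replication, 5.41 for mitosis and -1.24 for fatty acid and triglyceride synthesis. They were -0.82 for amino acid breakdown and the urea cycle, -0.76 for periportal and 1.40 for acute phase genes. *Mvd* (ENSMUSG00000006517, chromosome 8, 122433596 to 122443422), the decarboxylase that ends the mevalonate segment, had 32.0, 39.1 and 55.0 CPM at baseline, 29.7, 43.4 and 38.5 CPM in the vehicle remnants and 11.04, 12.0 and 9.59 CPM in the NSC remnants. Baseline and vehicle livers overlapped, and the NSC livers were all below both. The change from baseline was -1.95 ± 0.21 (adjusted p = 9.19e-05) and the difference from vehicle -1.78 ± 0.21 (adjusted p = 0.0341). Phosphomevalonate kinase *Pmvk* (-1.55 ± 0.26) and farnesyl diphosphate synthase *Fdps* (-1.37 ± 0.28) fell as well. *Sqle*, squalene epoxidase, had 103, 82.6 and 58.6 CPM with NSC against 74.6, 127 and 85.3 CPM at baseline, overlapping, and an adjusted p of 0.454 (-0.23 ± 0.23, 0.02 without baseline replicate 2). The sterol regulatory element TCACNCCAC was found in 1 of the 22 promoters of the list (4.55%) and in 1.24% of all promoters. The share of the list thus rests on 1 promoter, and the element was not found in the bases searched before the start of *Mvd*. CCAAT was found in 81.8% of the promoters of the list.

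Oxidation of fatty acids and ketogenesis changed in fewer genes, with 10 of 36 falling and none rising. The peroxisomal thiolase *Acaa1b* fell from 864, 784 and 969 CPM to 146, 135 and 229 CPM (-2.36 ± 0.25), and the acyl-CoA synthetase *Acsl1* from 1083, 712 and 986 CPM to 458, 296 and 315 CPM (-1.38 ± 0.23). *Cpt1a*, the gate of mitochondrial fatty acid import, had 346, 215 and 169 CPM with NSC and 324, 425 and 287 CPM at baseline (-0.51 ± 0.27, adjusted p = 0.169), and without NSC replicate 1 the change was -0.85 (adjusted p = 0.0143). Over the list 18 genes fell without that replicate, and 19 with baseline replicate 2 left out too, and the median went from -0.32 to -0.67.

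In bile acid synthesis and transport, 16 of 29 genes fell and 1 rose, or 3 rose without NSC replicate 1 (median -0.69). *Slc10a1*, the carrier that takes bile acids up from blood, fell from 588, 818 and 489 CPM to 321, 238 and 302 CPM (-1.14 ± 0.20). *Cyp27a1*, the first enzyme of the alternative pathway, had 699, 763 and 670.1 CPM at baseline and 212, 217 and 192 CPM with NSC, a change of -1.78 ± 0.23. *Slc27a5*, which activates bile acids for conjugation, changed by -1.21 ± 0.20. *Cyp7a1*, the rate-limiting enzyme of the classical pathway, overlapped between the groups, with 102, 249 and 238 CPM and 84.6, 50.1 and 122 CPM, and had an adjusted p of 0.189 (-1.20 ± 0.64).

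Enzymes of amino acid breakdown and the urea cycle mostly fell: 42 of 55 fell and 1 rose, with a median of -1.06. *Ass1* (ENSMUSG00000076441, chromosome 2, 31470207 to 31520672), which makes argininosuccinate, was nearly constant at baseline, at 3107, 3041 and 3112 CPM, and was at 517, 899 and 911 CPM in the NSC remnants (-1.99 ± 0.26, adjusted p = 0.000250). *Asl*, the next enzyme of the cycle, went from 1164, 1258 and 1089.7 CPM to 189.6, 233 and 287 CPM (-2.31 ± 0.25). *Cps1*, its entry enzyme, had 5864, 5826 and 5301 CPM and then 1962, 2862 and 2328 CPM (-1.25 ± 0.22). For none of these 3 genes did the livers overlap between the groups. *Tat*, the tyrosine aminotransferase, changed by -1.93 ± 0.25, *Got1*, the cytosolic aspartate aminotransferase, by -2.38 ± 0.24, and *Gnmt*, the methyltransferase that disposes of excess methionine, by -2.11 ± 0.30. *Got1* had 95.8, 80.8 and 119 CPM with NSC and 142, 248 and 241 CPM with vehicle at 40 h, and that difference of -1.10 ± 0.23 had an adjusted p of 0.0849.

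Hepatocytes divide their work by position along the blood flow, and the lists for the 2 ends of the lobule are given side by side. Of 18 periportal genes 14 fell and none rose (median -1.44). Of 21 pericentral genes 3 fell (14.3%) and 6 rose (28.6%), against 16.5% and 18.2% of all genes. Their median was 0.05, and -0.02 without NSC replicate 1. The lists share genes with the metabolic lists above, and the difference between them was not tested. *Cyp2f2*, a periportal cytochrome, fell from 1237, 997 and 1176 CPM to 282, 369 and 440.2 CPM (-1.64 ± 0.21). *Glul*, the glutamine synthetase of the last cells before the central vein, had 748, 968 and 623 CPM at baseline and 979, 581 and 709 CPM with NSC (-0.04 ± 0.23, adjusted p = 0.899). Its values overlapped, and the sign of its change depended on scaling and on single libraries. *Lect2* rose from 69.7, 70.9 and 62.4 CPM to 163, 172 and 262 CPM (1.56 ± 0.20), and *Slc1a4*, a neutral amino acid carrier, from 5.56, 3.54 and 6.14 CPM to 18.2, 32.4 and 23.2 CPM (2.27 ± 0.24). *Cyp2e1*, a pericentral cytochrome that oxidizes ethanol, fell from 4151, 5494 and 3828 CPM to 2094, 2341 and 2179 CPM (-1.03 ± 0.21).

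Glucose production genes fell in 12 of 20 cases, and none rose (median -1.13). *G6pc*, which releases free glucose, had 1615, 668 and 1171 CPM at baseline and 186, 149 and 235 CPM with NSC (-2.60 ± 0.31, adjusted p = 0.000173). *Pck1* (ENSMUSG00000027513, chromosome 2, 173153048 to 173159273), the committed step of gluconeogenesis, had 5387, 4452 and 4344 CPM, 3159, 3084 and 1684 CPM and 1481, 1075 and 1058 CPM in baseline, vehicle and NSC livers. Each NSC remnant was below each vehicle remnant, and each vehicle remnant below each baseline liver. The change from baseline was -1.97 ± 0.26, and the difference between the remnants, -1.13 ± 0.25, had an adjusted p of 0.0849. The glucokinase regulator *Gckr* changed by -1.52 ± 0.17. Pyruvate carboxylase *Pcx* changed by -1.18 ± 0.18, or -0.77 after GC correction. Among 47 nuclear genes of the respiratory chain 19 fell and none rose, by smaller amounts (median -0.31), for example *Uqcrc1* of complex III by -1.13 ± 0.16 and *Sdha* of complex II by -0.90 ± 0.14. The count of 19 was 8 without NSC replicate 2, 10 without baseline replicate 3, 8 without both libraries that stand apart and 11 with scaling by library size alone.

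In drug metabolism, 19 of 48 genes fell and none rose (median -0.53). Without NSC replicate 1, or without both libraries that stand apart, 2 rose. *Cyp3a11*, the main drug-metabolizing P450 of this family in mouse liver, was uneven in the remnants at 3307, 9898 and 12429 CPM against 7262, 3751 and 5455 CPM at baseline (0.64 ± 0.42, adjusted p = 0.262). NSC replicate 1 was below every baseline liver and the other NSC remnants were above, and without replicate 1 the change was 1.03 (adjusted p = 0.0103). After GC correction it was 0.15 with all livers, and without NSC replicate 3 it was 0.27. Of 22 male-biased genes 4 fell (18.2%), a share near the 16.5% of all genes. Among them was *Cyp4a12a*, from 346, 205 and 337 CPM to 124, 99.5 and 132 CPM (-1.32 ± 0.24). Of 16 female-biased genes 3 fell (18.8%, also near the share of all genes), or 1 without baseline replicate 2. Without both that liver and NSC replicate 1, 5 fell. *Elovl3*, a fatty acid elongase high in male liver, scattered in both groups, at 730.5, 73.8 and 689 CPM and 21.1, 124 and 315 CPM, and did not pass (adjusted p = 0.283, change -1.70 ± 1.12).

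Secreted plasma proteins moved in both directions. Albumin itself, *Alb*, was at 95847, 87929.8 and 93132 CPM and 81425, 84835 and 92637 CPM and had an adjusted p of 0.738 (-0.10 ± 0.20, 0.04 with scaling by library size alone). Of 52 genes of plasma proteins, coagulation and complement 15 fell (28.8%, against 16.5% of all genes) and 6 rose (11.5%, against 18.2%). The risers were 2 without baseline replicate 3, 3 without both libraries that stand apart and 3 after GC correction. *Apoe*, an apolipoprotein, went from 11043, 12608 and 13814 CPM to 3615, 4197 and 5199 CPM (-1.53 ± 0.21), *Apoa2* from 8937, 7927 and 8160.4 CPM to 3502, 3122 and 4424 CPM (-1.18 ± 0.22) and *Apoc1* by -1.35 ± 0.19. Prothrombin, *F2*, changed by -0.90 ± 0.18 and the serpin *Serpinf1* by -1.45 ± 0.18. Protein S, *Pros1*, an anticoagulant cofactor, rose by 1.13 ± 0.16, and the complement inhibitor *C4bp* by 1.06 ± 0.18 (0.71 and 0.51 after GC correction).

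Acute phase genes rose in 17 of 29 cases and none fell, and the count was 11 without NSC replicate 2 or without baseline replicate 3. Haemopexin, *Hpx*, which binds free haem, had the largest rise in mean CPM of all genes, from 5669, 9479 and 6358 CPM to 18445, 27848 and 22819 CPM (1.68 ± 0.28). Orosomucoid, *Orm1*, went from 1118, 1692 and 848 CPM to 3947, 5653 and 4519 CPM (1.95 ± 0.28), and serum amyloid P, *Apcs*, from 179, 234 and 163 CPM to 1747, 1249 and 766 CPM (2.71 ± 0.30). Baseline replicate 2 was high for several members. *Lcn2* (ENSMUSG00000026822, chromosome 2, 32384633 to 32388252), which binds bacterial iron carriers, had 20.3, 197 and 27.1 CPM at baseline and 1394, 1550.5 and 747 CPM with NSC, a change of 3.92 ± 0.92 that was 5.70 without that liver. *Saa3*, a serum amyloid that macrophages also make, had 8.25, 107 and 9.27 CPM at baseline, 28.3, 37.0 and 33.7 CPM in the vehicle remnants and 382, 224 and 386 CPM with NSC. The NSC remnants were above all others, the change from baseline had an adjusted p of 0.0590 (3.00 ± 1.02) and, without baseline replicate 2, of 8.34e-06 (5.24). The difference of 3.33 ± 1.03 from vehicle had an adjusted p of 0.165. *Saa1* was at 899, 3744 and 831 CPM and 6006, 9461 and 5179 CPM (1.92 ± 0.63, adjusted p = 0.0465), and its call was lost without NSC replicate 1, 2 or 3, baseline replicate 1 or 3, or vehicle replicate 1 or 2 (adjusted p from 0.0588 to 0.121), while without baseline replicate 2 the change was 2.99. The call was also lost without a filter on low counts and with the 6 libraries alone (adjusted p = 0.128 and 0.0680). The fibrinogen chains *Fga* (1.12 ± 0.24) and *Fgg* (1.12 ± 0.25, 0.67 after GC correction) rose with NSC replicate 3 the lowest.

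**Figure D4:**
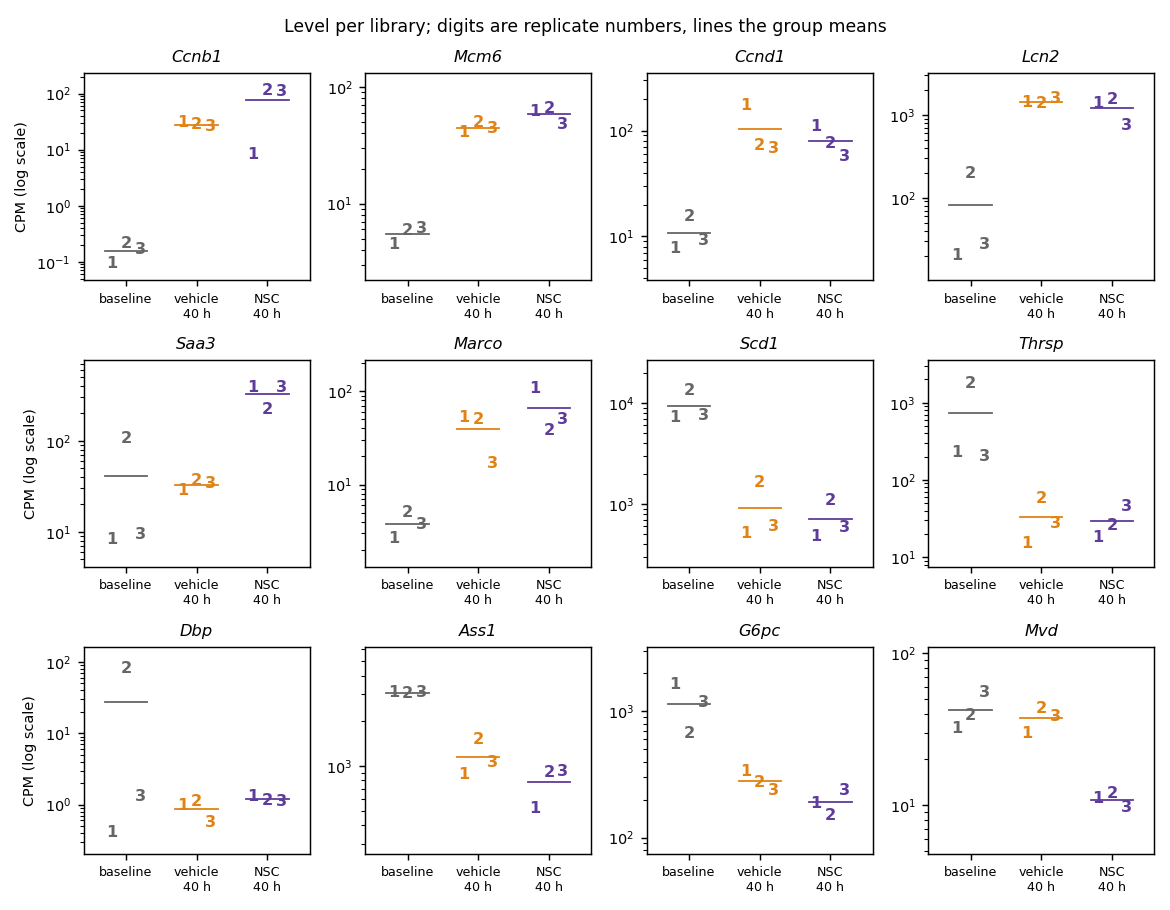
CPM on a log scale (vertical) of 12 genes in baseline, vehicle 40 h and NSC 40 h livers. Digits are replicate numbers and lines are group means. NSC replicate 1 is low for *Ccnb1*, baseline replicate 2 is high for *Lcn2*, *Saa3*, *Thrsp* and *Dbp*, and the 3 NSC livers alone are low for *Mvd*.

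Transcription factors that hold hepatocyte identity changed in part. *Hnf4a*, the central factor of hepatocyte genes, had 804, 786 and 737 CPM and 780.5, 668 and 570.2 CPM, which overlapped (adjusted p = 0.420, change -0.21 ± 0.19). *Cebpa*, which restrains hepatocyte division, fell from 209, 221 and 233 CPM to 70.3, 79.5 and 116 CPM (-1.32 ± 0.22, -0.78 after GC correction), and the pioneer factor *Foxa1* rose from 5.12, 7.70 and 4.59 CPM to 8.79, 14.5 and 12.7 CPM (1.05 ± 0.24). Of the 25 factors listed 9 fell (36.0%, against 16.5% of all genes) and 3 rose (12.0%, against 18.2%). Without baseline replicate 2, 5 rose. Of 14 genes of fetal liver 4 rose (28.6%, against 18.2% of all genes) and 1 fell (7.14%, against 16.5%). The risers were 2 without NSC replicate 1, baseline replicate 1 or baseline replicate 2, and 1 without both libraries that stand apart. The fetal albumin *Afp* rose from 0.379, 1.40 and 0.528 CPM to 3.27, 3.74 and 5.83 CPM (2.46 ± 0.45), and *Igdcc4* from at most 0.348 CPM to 8.79, 4.28 and 1.06 CPM (4.78 ± 0.98), with its call lost when baseline replicate 2 and NSC replicate 1 were both left out (adjusted p = 0.0709).

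Of 20 circadian clock genes 7 fell and none rose (median -1.38). Without baseline replicate 2, 6 fell and 2 rose and the median was -0.57, and without NSC replicate 2 or 3, 4 fell. *Cry2*, a clock repressor, had 31.5, 57.9 and 30.8 CPM at baseline and 9.69, 13.1 and 12.8 CPM with NSC (-1.76 ± 0.24, -1.39 without that liver), and *Per1* had 40.4, 57.0 and 28.3 CPM and 7.50, 8.59 and 10.5 CPM (-2.24 ± 0.37). Both fell without overlap. *Dbp* in the NSC remnants, at 1.32, 1.15 and 1.10 CPM, was close to baseline replicates 1 and 3, and its change of -4.53 ± 1.84 (adjusted p = 0.101) became 0.49 without baseline replicate 2. Without baseline replicate 1 it was -5.11 (adjusted p = 0.0479). By the methods, operations were held to one time in the daily light cycle. A remnant taken 40 h later therefore comes from another hour of the day than a resected lobe, and the hour and the regrowth cannot be told apart in these genes.

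**Figure D5:**
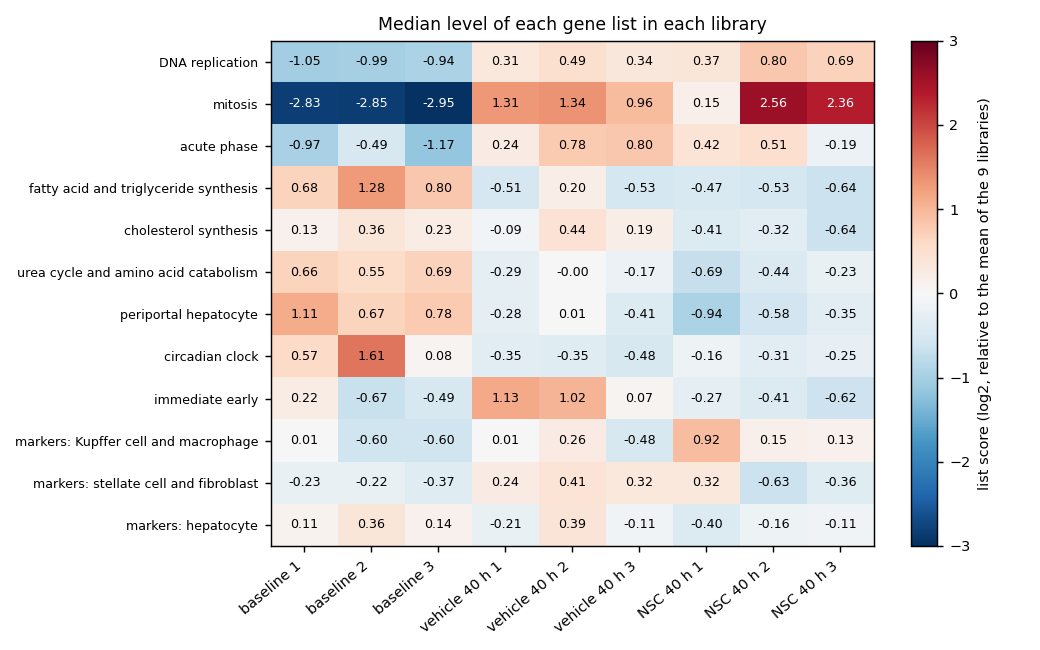
Scores of 12 gene lists (rows) in each of the 9 libraries (columns), given by colour and printed value on the log2 scale, with each gene centred on its mean across libraries. NSC replicate 1 has a mitosis score of 0.15 and the highest Kupffer cell score (0.92), and baseline replicate 2 has the highest clock score (1.61).

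Growth factor genes moved in both directions, 8 of 46 rising (17.4%) and 7 falling (15.2%), shares near those of all genes (18.2% and 16.5%). Without NSC replicate 1, 3 rose and 8 fell, and 3 rose without baseline replicate 3. Without both libraries that stand apart, 4 rose. *Hgf*, hepatocyte growth factor from stellate cells, rose from 4.77, 3.76 and 4.19 CPM to 22.7, 12.7 and 8.84 CPM (1.80 ± 0.29), and its receptor *Met* had 71.0, 64.4 and 57.2 CPM and 81.5, 77.9 and 65.4 CPM (adjusted p = 0.234, change 0.22 ± 0.14, -0.06 after GC correction). *Egfr* was at 419, 619 and 399 CPM and 775, 889.9 and 403 CPM (adjusted p = 0.181), with NSC replicate 3 at the baseline level, and without that replicate the change of 0.53 ± 0.29 was 0.80 (adjusted p = 0.0264). It was 0.30 without NSC replicate 2 and 0.16 after GC correction. *Vegfa*, the endothelial growth factor, fell from 165, 205 and 169.8 CPM to 73.8, 67.9 and 66.5 CPM (-1.37 ± 0.16), and the neuregulin receptor *Erbb3* by -1.20 ± 0.22.

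For the drug's targets the transcript says nothing of enzyme activity. *Ptpn11* (ENSMUSG00000043733, chromosome 5, 121130533 to 121191397) had 82.8, 70.1 and 80.4 CPM at baseline, 85.4, 94.5 and 86.8 CPM with vehicle and 93.9, 83.6 and 76.4 CPM with NSC. The NSC remnants overlapped both other groups (0.12 ± 0.14 from baseline, adjusted p = 0.518). *Ptpn6*, expressed mainly in blood cells, went from 20.1, 20.7 and 23.3 CPM to 16.0, 16.0 and 14.4 CPM (-0.47 ± 0.14, adjusted p = 0.0229). Its call was lost after GC correction (-0.23, adjusted p = 0.167) and without NSC replicate 2, NSC replicate 3 or baseline replicate 3 (adjusted p = 0.0518, 0.0554 and 0.107). Scaling by library size alone also ended it (-0.33, adjusted p = 0.118). The growth coactivator *Yap1* went from 54.8, 53.5 and 56.4 CPM to 67.1, 79.9 and 64.7 CPM (0.36 ± 0.13, adjusted p = 0.0498). That call was lost after GC correction (0.06, adjusted p = 0.714) and when any one library other than NSC replicates 1 and 3 was left out (adjusted p from 0.0539 to 0.189). It was also lost with RLE factors, without a filter on low counts and with the 6 libraries alone (adjusted p = 0.0524, 0.109 and 0.0678). Its paralog TAZ, *Wwtr1*, changed by 0.66 ± 0.18 (adjusted p = 0.0135), and the call was lost after GC correction (0.27, adjusted p = 0.245) and without baseline replicate 1 or 3 (adjusted p = 0.0563 and 0.0622). *Gab1*, the docking protein that recruits SHP2, changed by -0.78 ± 0.19, and its adjusted p was 0.0579 with both libraries that stand apart left out. The YAP partner *Tead3* changed by -0.90 ± 0.18 (-0.48 after GC correction). Over the 26 genes around SHP2, SHP1, YAP and TAZ 6 rose (23.1%) and 4 fell (15.4%), against 18.2% and 16.5% of all genes. After GC correction 2 rose and 3 fell. The risers were 2 without baseline replicate 2, 1 without baseline replicate 3, 3 without baseline replicate 1 or NSC replicate 2, and 2 without both libraries that stand apart.

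Immediate early genes, which growth signals switch on within minutes, are given beside their vehicle values. Of 22 genes 4 rose (18.2%, the same share as of all genes) and 2 fell from baseline, with a median of -0.35. In the vehicle remnants 9 rose and none fell from the same baseline, with a median of 1.41. Between the remnants themselves 1 of the 22, *Egr2*, passed the test. Without NSC replicate 1, 2 rose and 3 fell, and 2 rose without baseline replicate 3 or vehicle replicate 2, while 4 fell without both libraries that stand apart. *Egr2* (ENSMUSG00000037868, chromosome 10, 67535475 to 67542188) had 0.0632, 0 and 0.165 CPM at baseline, at most 5 reads, 0.510, 0.340 and 0.391 CPM with NSC and 4.43, 4.66 and 3.54 CPM with vehicle. The NSC remnants were between the other groups, 2.42 ± 0.62 above baseline and -3.33 ± 0.44 from vehicle (adjusted p = 0.0470). *Ier5* rose from 1.67, 1.28 and 1.45 CPM to 8.19, 9.30 and 8.84 CPM (2.58 ± 0.30). *Zfp36*, which destabilizes cytokine messages, fell from 257, 185 and 155 CPM to 54.4, 100.3 and 90.3 CPM (-1.29 ± 0.32) and was at 305, 358 and 163 CPM with vehicle (-1.75 ± 0.33, adjusted p = 0.0849). *Nr4a1* had 1.80, 2.44 and 3.68 CPM with NSC, 20.5, 2.78 and 9.50 CPM at baseline and 87.1, 79.9 and 4.65 CPM with vehicle, and passed neither test (adjusted p = 0.209 and 0.138). Its change from baseline was -2.06 ± 1.15, or -1.23 without baseline replicate 1.

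Genes for building ribosomes rose in 13 of 44 cases and 1 fell (median 0.29), with 8 rising without NSC replicate 2, 7 without baseline replicate 3 and 21 with scaling by library size alone. The small nucleolar RNP proteins *Nop58* and *Nop56* rose, from 19.3, 16.0 and 15.8 to 46.9, 67.5 and 51.7 CPM (1.70 ± 0.19) and from 16.8, 18.1 and 15.8 to 33.8, 34.5 and 34.2 CPM (1.02 ± 0.13). Of 47 genes of cytosolic ribosomal proteins 1 rose and none fell. Without NSC replicate 1, 10 rose, without both libraries that stand apart 6 rose, and without NSC replicate 3, 2 fell. Of 34 proteasome genes 2 rose and 2 fell (5.88% each, against 18.2% and 16.5% of all genes). None rose without NSC replicate 2 or any one baseline replicate, and 4 fell without NSC replicate 3. After GC correction none rose and 4 fell. In the unfolded protein and integrated stress response, 6 of 32 rose (18.8%) and 4 fell (12.5%), against 18.2% and 16.5% of all genes. *Herpud1*, which clears misfolded proteins of the endoplasmic reticulum, fell from 555, 547 and 554 CPM to 171, 162 and 144 CPM (-1.79 ± 0.18), and *Ppp1r15a*, which reverses the block of translation, from 25.7, 16.4 and 20.1 CPM to 7.38, 6.38 and 7.32 CPM (-1.56 ± 0.19). The chaperone *Hspa5* had 876, 571 and 995 CPM at baseline and 1135, 1199 and 1042 CPM with NSC, which did not overlap, and did not pass the test (0.47 ± 0.26, adjusted p = 0.176). *Aldh18a1*, of proline synthesis, rose by 2.17 ± 0.35.

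Of 22 p53 targets 9 rose (40.9%) and 5 fell (22.7%), against 18.2% and 16.5% of all genes. The death receptor *Eda2r* rose from 0.253, 0.214 and 0.231 CPM to 4.29, 5.30 and 4.23 CPM (4.29 ± 0.30), the cyclin G gene *Ccng1* by 1.33 ± 0.19 and *Mdm2*, the ligase that degrades p53, by 0.69 ± 0.13 (0.83 and 0.46 after GC correction). *Plk3*, a stress kinase, fell from 168, 139.9 and 129.5 CPM to 43.9, 36.7 and 32.6 CPM (-1.95 ± 0.23), while the vehicle remnants held 117, 149 and 76.3 CPM. In 18 NRF2 targets and metallothioneins 1 rose and 1 fell (5.56% each). The riser was haem oxygenase *Hmox1*, from 14.1, 10.9 and 17.8 CPM to 44.7, 27.7 and 32.9 CPM (1.30 ± 0.21). In this list 3 rose without NSC replicate 1, 3 fell without NSC replicate 3 and 3 fell without both libraries that stand apart. Of 26 nutrient transporters 9 fell (34.6%, against 16.5% of all genes) and 3 rose (11.5%, against 18.2%).

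Markers of other liver cells are given as measured, and their part in the results above was not tested. Of 18 Kupffer cell and macrophage markers 7 rose and none fell, and their summed level was 274 to 376 CPM at baseline and 448 to 761 CPM with NSC, the highest in NSC replicate 1. *Marco*, a scavenger receptor, rose from 2.62, 5.07 and 3.73 CPM to 108, 38.4 and 50.1 CPM (4.10 ± 0.60), and *Cd5l*, an inhibitor of macrophage apoptosis, from 60.3, 44.5 and 50.1 CPM to 173, 113 and 122 CPM (1.39 ± 0.22). *Vsig4* and *Timd4*, receptors of resident Kupffer cells, were at 34.6, 22.6 and 22.8 and 10.5, 7.88 and 5.91 CPM with NSC, from 16.1, 9.92 and 11.02 and 4.20, 2.29 and 2.24 CPM at baseline. The vehicle remnants overlapped baseline for both, the NSC remnants were above all others, and the difference from vehicle was 1.10 ± 0.23 and 1.40 ± 0.31 (adjusted p = 0.0849 for both). Without NSC replicate 1 the list median went from 0.93 to 0.48 and 5 rose.

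Of 15 stellate cell and fibroblast markers 4 rose (26.7%, against 18.2% of all genes), among them the proteoglycan *Lum* (2.05 ± 0.29). Another 3 fell (20.0%, against 16.5%), among them *Ecm1* (-1.55 ± 0.19). The summed level of the list was 405 to 463 CPM at baseline and 372 to 660.4 CPM with NSC. Without baseline replicate 1 or 3, 2 rose, without NSC replicate 2 or baseline replicate 2, 1 fell, and after GC correction 2 rose and 1 fell. Of 8 tested cholangiocyte markers of 12 listed, 3 rose, among them osteopontin *Spp1* (1.35 ± 0.22), with sums of 51.6 to 57.2 CPM and 90.4 to 133 CPM. Without baseline replicate 2, 1 of these rose and 1 fell, and without baseline replicate 1, 1 rose. Of 14 sinusoidal endothelial markers 2 fell (14.3%, against 16.5% of all genes) and none rose, with sums of 426 to 465 CPM and 291 to 499.7 CPM. Without NSC replicate 1, 6 fell, without both libraries that stand apart 5, and without NSC replicate 2 none. Neutrophil markers were scarce, with sums of 4.18 to 12.7 CPM and 14.7 to 23.9 CPM. Of 7 tested of 12 listed 3 rose, *Retnlg* by 3.08 ± 0.57, or 1 without baseline replicate 3. Lymphocyte markers summed to 22.8 to 30.6 CPM at baseline and 9.13 to 12.2 CPM with NSC. Of 6 tested erythroid markers 2 fell, *Klf1* with a change of -3.06 ± 0.66 and the haem synthesis gene *Alas2* with a change of -1.60 ± 0.38, with sums of 228 to 328 CPM and 129 to 231 CPM. Hepatocyte markers summed to 148071 to 150104 CPM at baseline and 130425 to 141854 CPM with NSC, so the tissue was liver by its own markers in every library. Of the 10 erythroid markers listed, 9 were matched to the deposited genes and enter the sums. No matched marker of any list was at 0 in all 6 libraries.

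Between NSC and vehicle remnants at 40 h, the comparison that holds the operation constant, 6 of 15024 genes passed (0.0399%), all lower with NSC. They were *Mvd*, *Plk3*, *Egr2*, *Cad*, *Hip1r* and *Gm25745*. *Cad*, which starts pyrimidine synthesis, had 11.6, 13.01 and 18.4 CPM at baseline, 34.1, 28.6 and 24.7 CPM with vehicle and 11.8, 12.7 and 10.8 CPM with NSC. Every vehicle remnant was above every baseline liver, and the NSC remnants overlapped baseline. The difference between the remnants was -1.31 ± 0.19 (adjusted p = 0.0470), and the NSC change from baseline was -0.29 ± 0.19 (adjusted p = 0.267). *Hip1r*, an endocytic actin-binding protein, was at 43.3, 42.6 and 42.1, 41.0, 50.4 and 40.3 and 20.5, 22.9 and 23.5 CPM in the same order, with the NSC remnants below both other groups (-0.98 ± 0.14, adjusted p = 0.0470). After GC correction none of the 6 passed, with differences of -1.43 for *Mvd* and -3.25 for *Egr2* (adjusted p = 0.195 for both) and of -1.22 for *Plk3*, -0.99 for *Cad*, -0.69 for *Hip1r* and -0.91 for *Gm25745* (adjusted p = 0.274 for each). The count of 6 was thus 0 after GC correction, 758 by DESeq2, 994 without NSC replicate 1, 111 without vehicle replicate 3, and 0 without NSC replicate 2, NSC replicate 3 or vehicle replicate 2.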

How the data were processed

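RNA-Seq was made as 9 libraries of mouse liver. Reads were mapped with STAR 2.6.1 and counted per gene with featureCounts of Subread 1.5.1, per the submitters' processing notes, which name hg38 although the deposited table lists mouse genes by Ensembl ID. The authors deposited raw counts and FPKM for 43346 genes in one table. The deposited FPKM values were used only to rank genes for naming. All 37 mitochondrial genes were at 0 in every library. Strand was not given in the sources used here, so overlapping and antisense genes, and close paralogs such as *Saa1* and *Saa3* with their relatives, are uncertain.

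Counts were tested with edgeR 4.0.16 in R 4.3.3 (TMM factors, filterByExpr, robust quasi-likelihood fit of all 9 libraries by group, Benjamini-Hochberg over 15024 genes). The SE was taken as the absolute change over the root of the quasi-likelihood F. Fold changes use edgeR's default prior count, and log2 CPM for the GC correction a prior of 2. DESeq2 1.42.0, other scalings and filters, the 6 libraries alone, a replicate block, GC correction (loess, span 0.5), a fold threshold of 1 and leaving out single libraries were alternatives, and leaving out the 2 libraries that stand apart was added after seeing the data. Summed marker levels include members that failed the filter. The members and the 38 lists were chosen with earlier results of these data known. Named genes were the 10 largest rises and 10 largest falls without overlap and with a mean of at least 5 CPM, the 8 largest rises and 8 largest falls in mean FPKM, fixed members of each list with up to 4 further members of smallest adjusted p, and up to 8 genes that differed from vehicle. *Cdk1* and *Myc* fell outside this rule. On simulated counts of the NSC against baseline comparison, with 200 of 15024 genes changed, 92 were recovered at a 2-fold change, 173 at 4-fold and 191 at 8-fold. Libraries of one group differed beyond counting noise. Gene positions are those of the deposited table, whose mouse build is not given in the sources used here, and promoters and motif positions come from RefSeq (GRCm38.p6). A few genes are not reported here.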

Additional observations from a re-analysis of the deposited data

Results flagged for a closer look

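Of the comparisons across genes, 6 genes differed between the NSC and the vehicle remnants at 40 h, a test of the difference between their changes from the shared baseline (edgeR quasi-likelihood test, Benjamini-Hochberg adjusted). The mevalonate enzyme *Mvd* differed by -1.78 ± 0.21 (adjusted p = 0.0341), and *Egr2*, an immediate early factor, by -3.33 ± 0.44 (adjusted p = 0.0470). *Plk3*, a stress kinase, differed by -1.60 ± 0.23 (adjusted p = 0.0470), with 117, 149 and 76.3 CPM in the vehicle and 43.9, 36.7 and 32.6 CPM in the NSC remnants. *Cad* of pyrimidine synthesis differed by -1.31 ± 0.19 (adjusted p = 0.0470) and *Hip1r* by -0.98 ± 0.14 (adjusted p = 0.0470). *Gm25745*, a gene with no role known here, had 50.2, 34.4 and 49.8 CPM with vehicle and 21.9, 16.6 and 16.0 CPM with NSC (-1.30 ± 0.19, adjusted p = 0.0470). All 6 were lower in 3 of 3 NSC remnants than in any vehicle remnant. They were picked by this same test, so that lack of overlap adds no support. None passed after GC correction (adjusted p = 0.195 for *Mvd* and *Egr2* and 0.274 for the other 4).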

How the results depend on the processing

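Counts of genes were 2728 rising and 2479 falling, and within 1.5 times of these under the alternatives run, from 1854 to 2754 and from 1750 to 2480 when single libraries were left out. Changes beyond 1.5 ranged from 719 to 867 rising and from 377 to 502 falling in those fits, and were 443 and 261 when 10 counts in every library were required, since fewer genes are tested, and 1383 and 1053 at a threshold of 1. The labels do not say whether a replicate number marks a shared animal, and same-numbered libraries did not deviate together throughout (r = 0.0919, 0.0155 and 0.0676 for NSC and baseline, 0.0807, 0.0698 and -0.0479 for vehicle and baseline, 0.134, 0.0712 and 0.0187 for NSC and vehicle). Differently numbered libraries had r from -0.115 to 0.0659, so most same-numbered values were higher. Whether the numbers mark animals or surgery batches was not tested. With the replicate number as a block, 2663 genes rose and 2515 fell, 1 of the named calls was lost, that of *Yap1* (adjusted p = 0.0696), and NSC against vehicle gave 11 genes. The latter count, 6 at first, was 758 with DESeq2, 221 without a filter, 1 with library size scaling, 0 with GC correction, from 0 to 994 without single libraries and 1419 without baseline replicate 2 and NSC replicate 1, and the cause was not tested.

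Of 110 named genes past the threshold, 100 stayed past it in every setting in which they were tested, and none changed sign. Genes with few reads, such as *Ccnb1* and *Egr2*, were not tested where 10 counts in every library were required. Many of the 110 were named for large changes or small adjusted p in these same data, so this share was favoured by their choice. Among values that changed sign, leaving out single libraries gave medians from -1.68 to 0.0738 for female-biased, -0.0221 to 0.1687 for pericentral, -0.47 to 0.1045 for immediate early, -0.0132 to 0.2174 for growth factor, -0.1231 to 0.3215 for ribosomal protein and -0.1165 to 0.0786 for proteasome genes. The proteasome median was also 0.1323 with library size scaling, 0.0043 with the stricter filter and 0.1248 without both libraries that stand apart. Leaving out single libraries, *Dbp* ranged from -5.11 to 0.4914, *Glul* from -0.2723 to 0.1418 and *Sqle* from -0.4351 to 0.0235. *Dbp* was 0.4110 and *Ptpn11* -0.0284 without both libraries, *Alb* 0.0423 and *Glul* 0.1065 with library size scaling, and *Met* -0.0572 and *Cad* 0.1073 with GC correction. The cause of these sign changes was not tested. Baseline levels of a few reads, as for *Ccnb1* and *Egr2*, limit how well their fold changes are known.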
